A study of Mus musculus with 12 samples.

Results

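The 3 libraries labelled WT chow are the baseline of a mouse liver experiment with 12 libraries in all, and each was compared with the 9 libraries of the other groups. They are the samples whose labels give a wild-type genotype and feeding on the standard vivarium diet, and no measured value was used to choose them. The other groups, of 3 libraries each, are WT HFD (wild type on a high fat diet), KO chow and KO HFD (liver knockout of Hnf4a on either diet). The labels call every sample liver, and total RNA was taken with Trizol. The sources used here do not give strain, age, sex, diet length or the driver of the knockout. Samples of a group are described as biological replicates, with no word on whether they came from separate animals, so any p-value below measures the spread between these samples, which may be technical.

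Most of the liver's mass is hepatocytes, which make the plasma proteins, the bile acids and the enzymes that clear drugs and nitrogen. HNF4A is a nuclear receptor that, together with the FOXA factors and C/EBP alpha, keeps hepatocyte genes active. Brown fat is a heat-producing tissue packed with mitochondria, in which UCP1 lets protons back across the inner membrane without making ATP. Values are in FPKM, in which counted fragments are divided by gene length and by library depth, a level that can be compared between genes because it is set per length. A difference is given on the log2(FPKM + 1) scale against the median of the other 9 libraries, and understates the change of low genes. A library is called above or below for a gene when it lies outside the range of the other 9, and clear when it lies at least 1 log2 unit outside it. A single library has no replicate check, so all such counts are descriptions with no test.

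Hnf4a (ENSMUSG00000017950, chromosome 2, 163506808 to 163572910, plus strand, GRCm38, protein-coding) stood at 126 FPKM in WT chow 1, 75.8 FPKM in WT chow 2 and 0.0973 FPKM in WT chow 3. The other 9 libraries ran from 98.8 to 158 FPKM with a median of 130, and the 6 libraries labelled KO had 98.8 to 158 FPKM. Hnf4a therefore did not follow the knockout labels; a gene-level value need not show the deletion of part of a gene, and KO is used below as a label only. WT chow 1 was therefore inside the range of the others, WT chow 2 was under it, and WT chow 3 held 7 reads of the gene where WT chow 1 held 10081. The WT chow mean was 67.2 ± 63.2 FPKM (SD, n = 3) and the mean of the others 126 ± 17.6 FPKM (SD, n = 9), with a two-sided exact permutation p of 0.0455 (smallest possible 0.00909). In the limma fit across all genes the log2 difference was −2.51 (SE 1.11, adjusted p = 0.224). Without WT chow 1 it was −3.78 (adjusted p = 0.0320), and without WT chow 3 it was −0.35 (adjusted p = 0.337).

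The 3 libraries did not share one tissue profile. Correlated with each of the 9 across genes, WT chow 1 had a median r of 0.980, WT chow 2 of 0.806 and WT chow 3 of 0.576, while pairs among the 9 ran from 0.931 to 0.984; genes are not independent replicates. Depth did not separate them, with 18400230, 18843044 and 16495788 reads on genes against 15705196 to 20311766 over all 12 libraries. Of 12251 genes tested, WT chow 1 lay above all 9 others in 403 (3.29%) and below all 9 in 620 (5.06%). WT chow 2 lay above in 3866 (31.6%) and below in 4205 (34.3%). WT chow 3 lay above in 3115 (25.4%) and below in 4749 (38.8%). Clear genes numbered 3 above (0.0245%) and 3 below (0.0245%) in WT chow 1, 562 above (4.59%) and 846 below (6.91%) in WT chow 2, and 918 above (7.49%) and 1592 below (13%) in WT chow 3. WT chow 1 thus kept 91.7% of genes within the range of the others, against 34.1% and 35.8% in WT chow 2 and 3.

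**Figure D1:**
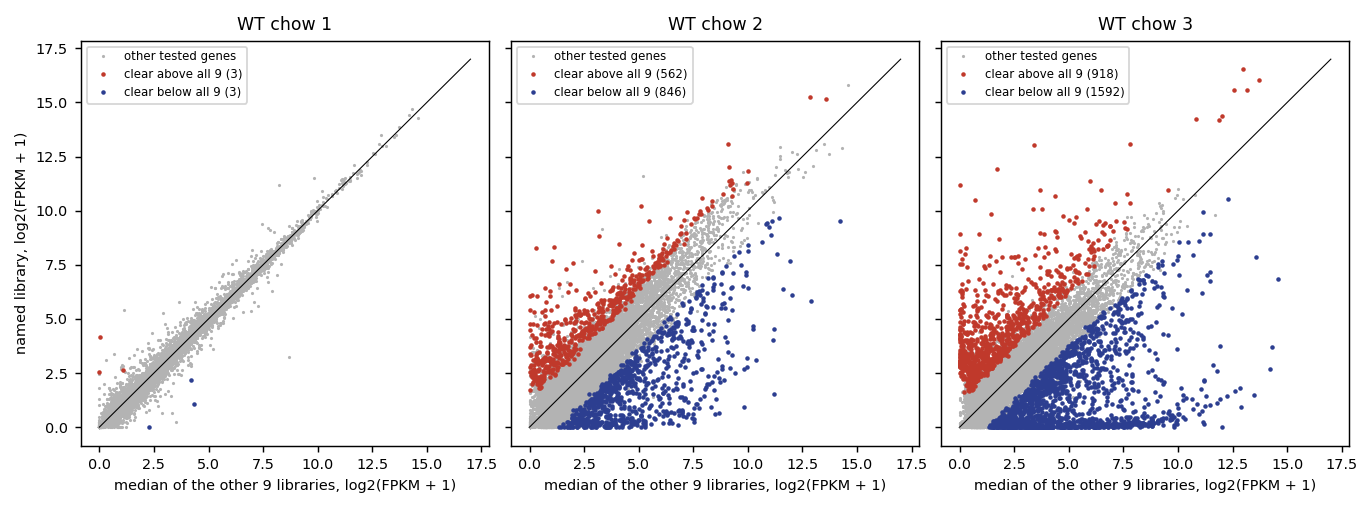
Each panel plots 12251 genes of 1 WT chow library (vertical axis) against the median of the other 9 libraries (horizontal axis), both as log2(FPKM + 1), with the line of equal levels. WT chow 1 hugs the line with 3 clear genes on either side, while WT chow 2 has 562 above and 846 below and WT chow 3 has 918 above and 1592 below.

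The group test was the limma contrast of WT chow with the mean of the other 3 groups. It called 0 genes higher (0%) and 0 lower (0%), with a smallest adjusted p of 0.106, although 2644 genes had an unadjusted p under 0.05. Limma-voom on the recovered reads also called 0, with 2580 genes under an unadjusted 0.05. Leaving out WT chow 1 brought 3130 calls, 1123 higher and 2007 lower. The 5 smallest p-values belonged to Prss2 and Clps, which encode pancreatic digestive proteins, to Per2, a core repressor of the circadian clock, and to the predicted genes Gm14287 (log2 difference −2.28, adjusted p = 0.156) and Gm20684 (−0.86, adjusted p = 0.162). Prss2 had 0 reads in every WT chow, WT HFD and KO chow library, and Clps had 1 read, in WT chow 1. Both were present in the 3 KO HFD libraries, with Clps at 5.42, 4.27 and 3.71 FPKM, so their difference lies in KO HFD. Per2 stood at 2.80, 1.04 and 1.55 FPKM in WT chow 1 to 3 against 3.50 to 7.0 FPKM in the others, with no overlap. Its log2 difference was −1.13 (SE 0.18, adjusted p = 0.162 by limma).

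Alb, for albumin, and Ucp1 stood far apart in the 3 libraries, and the 250 bases upstream of each RefSeq start are shown because the gene lists they belong to, hepatocyte secreted proteins and brown fat genes, lay on opposite sides in WT chow 3. Both are the RefSeq sequences on GRCm38.p6, plus strand, 5′ to 3′, at chr5:90460620-90460869 for Alb and chr8:83290098-83290347 for Ucp1. The RefSeq start of Alb lies upstream of the gene start in the deposited table, and that of Ucp1 is the same in both. Capitals would mark CAAAGTCCA, a motif bound by HNF4 that was searched on both strands, and neither window holds it.
Alb: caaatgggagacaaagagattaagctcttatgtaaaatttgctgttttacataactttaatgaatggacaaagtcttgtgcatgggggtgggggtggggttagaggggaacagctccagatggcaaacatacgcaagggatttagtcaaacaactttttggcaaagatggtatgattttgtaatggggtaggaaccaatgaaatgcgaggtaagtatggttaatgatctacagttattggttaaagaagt
Ucp1: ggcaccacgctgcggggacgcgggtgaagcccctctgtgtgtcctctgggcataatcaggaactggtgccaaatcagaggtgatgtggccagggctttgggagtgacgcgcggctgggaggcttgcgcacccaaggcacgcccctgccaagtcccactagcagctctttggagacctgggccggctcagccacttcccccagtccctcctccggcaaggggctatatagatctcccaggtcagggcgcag
The motif occurred in 122 of 27025 promoter windows of the same length (0.451%). It was in 1 of 19 P450 and drug-handling genes with a window, Cyp3a11, and in 0 of 16 hepatocyte secreted protein genes, 0 of 16 metabolic enzyme genes, 0 of 17 general adipocyte genes and 0 of 22 brown fat genes. A match is a description of letters, not a bound site, and no match says only that these letters are not in the window.

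WT chow 1 had the transcript profile of liver at the level of the other 9 libraries. Alb (ENSMUSG00000029368, chromosome 5, 90460889 to 90476603, plus strand) was at 26888 FPKM, inside 12811 to 41503 FPKM in the others. Of the 20 secreted protein genes of hepatocytes 0 lay outside the range, with a median difference of 0.10 against −0.01 over all tested genes. The 25 metabolic enzymes (median 0.04), the 18 liver transcription factors (−0.04) and the 11 ketone body and urea genes (0.04) had no clear member either. Above all 9 others lay 4 of 24 P450 and drug-handling genes and 4 of 16 bile acid and uptake genes (background 3.29%). Below all 9 lay 4 of 17 endothelial, 4 of 15 fibroblast and stellate cell and 4 of 13 immediate early and heat shock genes (background 5.06%). None of these was clear. Defining fat transcripts were at or near 0: Ucp1 and Plin1, the perilipin of fat cell droplets, had 0 reads, and Adipoq, the fat hormone adiponectin, had 4 reads. Among other tissues, 5 of 9 skin and stratified epithelium genes lay above all 9 others with 0 clear (background 3.29% above, median 0.71), as did 3 of 10 heart muscle genes with 0 clear (median 1.21). These lists summed to 31.5 FPKM, against 9.33 to 44.0 in the 9, and to 42.3 FPKM, against 3.83 to 56.3.

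Of the genes clear of the others in WT chow 1, Dmbt1 stood furthest out. It encodes a secreted mucin-like protein of epithelia (chromosome 7, 131032076 to 131121626, plus strand), and it was at 17.2 FPKM (1971 reads) against 0 to 0.476 FPKM in the 9 others, 36.0-fold over the highest. Lypd8, an intestinal surface protein, was at 4.77 FPKM against 0 to 1.33, and Lgals7, a galectin of stratified epithelium, at 5.19 against 0.0692 to 1.89 FPKM. Below the others were Hist1h2bq, a replication histone gene, with 0 reads against 2.21 to 7.48 FPKM (at least 28.8-fold lower than the lowest, taking a floor of 3 reads in the library) and Pcp4l1 at 3.55 against 9.12 to 89.3 FPKM. Near-identical histone genes can share or lose reads in counting. The third gene clear below was Rpl3-ps1, a ribosomal protein pseudogene, named here after its values were seen.

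The 3 named genes nearest to the mark from inside were Sugct, a glutarate CoA-transferase gene, at 38.2 FPKM against 3.08 to 20.4 (0.87 log2 units past the nearest), Bik, a cell death gene, at 11.3 against 0.722 to 6.09 (0.80), and Tex12, a meiosis gene, at 7.13 against 1.19 to 3.81 (0.76). Krt19, the keratin of bile duct cells, lay 0.58 units past the nearest, at 6.31 FPKM against 0.464 to 3.9. Among 11 tested biliary and simple epithelium genes 2 lay above the others and 1 of those, Dmbt1, was clear (background 3.29% and 0.0245%). Their summed level was 371 FPKM, inside the 248.8 to 729 FPKM of the 9, so the list as a whole did not stand apart.

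Cholesterol synthesis genes of WT chow 1 lay toward the upper end, with a median difference of 0.93 over 22 genes. Of these, 2 lay above all others (background 3.29%) and 0 were clear. Cyp51, lanosterol demethylase, was at 26.6 FPKM against 5.35 to 39.7 with a median of 6.97, and Idi1, an isoprenoid isomerase, at 10.6 against 0.881 to 21.4 with a median of 2.91. Major urinary proteins, pheromone carriers of male mouse liver, were listed after values had been seen. They had a median of 0.92, with 3 of 15 above (background 3.29%) and 0 clear. Mup7 was at 2954 FPKM against 175 to 2425. This family is nearly identical in sequence, so reads may have been split between members. Cyp3a11, a P450 that clears drugs and steroids, spread widely among the 9 (67.2 to 3546 FPKM) and was at 2365 FPKM in WT chow 1. Neither list had a member clear of the range that the other 9 libraries covered.

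WT chow 2 carried liver transcripts in a strongly uneven way. Plasma protein genes ran from far below to above the other libraries, while most drug-handling, bile acid and male-biased genes lay far below them. Of 24 tested P450 and drug-handling genes, 16 were clear below and 2 clear above the other 9 (background 6.91% and 4.59%), with a median difference of −6.10 against −0.01 over all genes. Cyp2c50 (chromosome 19, 40089688 to 40113950, plus strand), a P450 that oxidizes fatty acids and drugs, was at 0.582 FPKM against 213 to 707 FPKM, 366-fold under the lowest. Cyp2c54 was at 0.180 FPKM against 49.6 to 248 FPKM. Ugt2b1, which conjugates drugs and steroids to glucuronic acid, was at 0.309 against 103 to 231 FPKM. Some members were not low: Gstm1, a glutathione transferase, was at 1841 FPKM inside a range of 618 to 2704.

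Bile acid and uptake genes were also low, with 10 of 16 clear below (background 6.91%) and a median of −3.71. Cyp8b1, which sets the cholic acid share, was at 0.136 FPKM against 18.8 to 116, Slc27a5, which activates bile acids, at 0.881 against 166 to 368, and Slco1b2, a hepatocyte uptake carrier, at 3.23 against 124 to 399 FPKM. Abcb11, the bile salt export pump, was not low and stood at 130 FPKM inside 49.7 to 136. Nr0b2, encoding the bile acid-responsive repressor SHP, was above all others at 192 FPKM against 18.8 to 110, and Abcb4, the phospholipid pump, was clear above at 198 against 50.1 to 87.2 FPKM.

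Metabolic enzymes of hepatocytes were clear below in 13 of 25 and clear above in 1, Fabp1 (background 6.91% and 4.59%, median −1.59). Secreted proteins of hepatocytes in WT chow 2 ranged from 2.0% to 206% of the median of the other 9, with a median of 67.1% over 20 genes. Of these 20 genes, 10 lay below all 9 others and 3 above (background 34.3% and 31.6%). Alb was at 7604 FPKM (37.4% of that median), under all 9 others but not clear of them. Hpx, the heme carrier hemopexin, and Fgg, a fibrinogen chain, stayed inside the range at 3580 and 2203 FPKM. Ambp, a plasma protease inhibitor precursor, was above it at 5815 FPKM against 2560 to 4233, and Ahsg, fetuin-A, at 6269 against 4240 to 5571. In contrast Apoa2 and Apoc3, apolipoproteins of HDL and of triglyceride-rich particles, were at 742 FPKM against 14236 to 24644 and at 82.9 FPKM against 2304 to 4674. Serpina1a, an alpha-1-antitrypsin, was at 24.1 FPKM against 857 to 1491, which put 5 of the 20 clear below (with Apob and Serpina1c). Apoe, the remnant apolipoprotein, was the most abundant transcript by reads, at 56632 FPKM against 19469 to 29234.

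**Figure D2:**
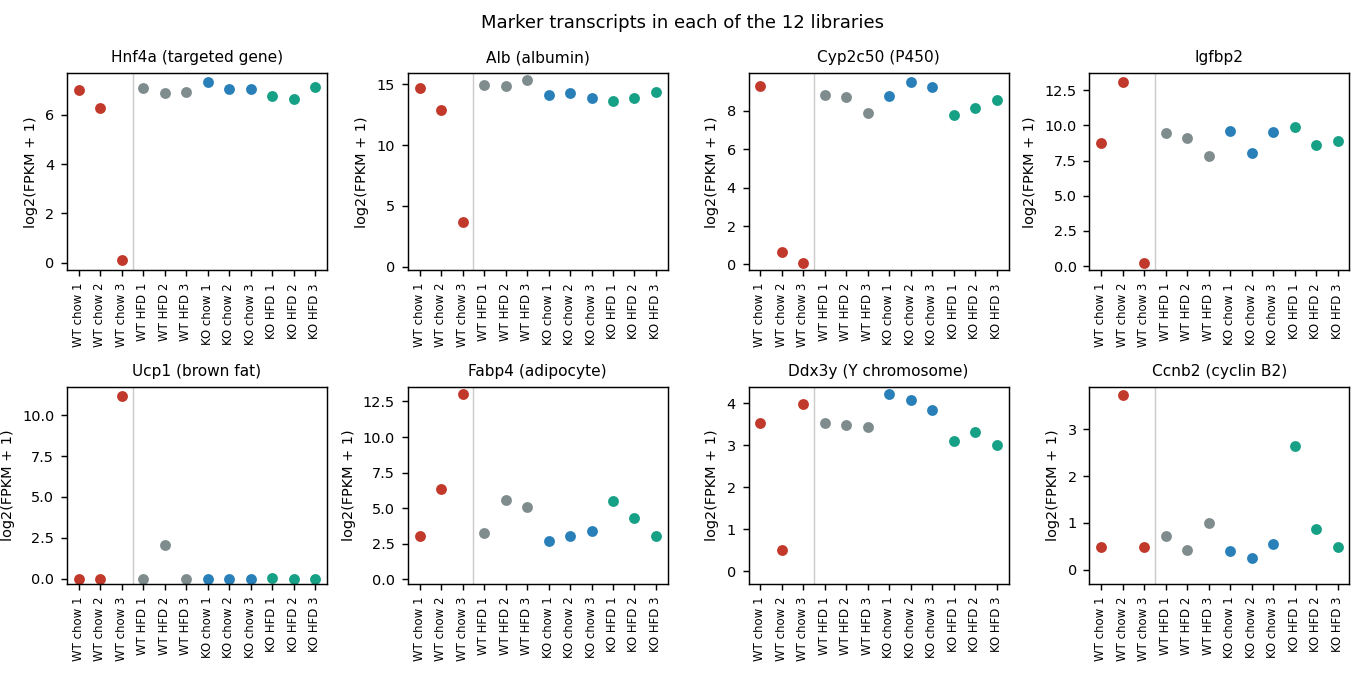
FPKM of 8 transcripts in the 12 libraries on a log2(FPKM + 1) axis, 1 point per library, colored by group, with WT chow left of the line. Hnf4a and Alb were near the other libraries in WT chow 1, lower in WT chow 2 and lowest in WT chow 3. In WT chow 3 Hnf4a was close to the axis and Alb was not. Ucp1 reached 2339 FPKM in WT chow 3 and Igfbp2 8556 FPKM in WT chow 2.

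Among liver transcription factors in WT chow 2, 11 of 18 lay below all 9 others and 2 above (background 34.3% and 31.6%), with a median of −0.67. Only 2 of the 18 were clear below (Nr1i3 and Cebpa, background 6.91%). Nr1i3, encoding CAR, the receptor that switches on drug clearance, was at 0.267 FPKM against 15.0 to 57.7 FPKM. Cebpa was at 79.9 FPKM against 193 to 327. Nr1i2, encoding the related receptor PXR, was inside the range at 23.7 FPKM (19.7 to 44.8), as was Foxa3 at 36.1 FPKM (19.1 to 57.6).

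Genes that mark the zone around the central vein were all below the other 9 in WT chow 2 (12 of 12, median −2.67). Of these, 7 were clear. Over all genes 34.3% lay below and 6.91% were clear below. Oat, ornithine aminotransferase, was at 2.63 FPKM against 124 to 422, and Glul, glutamine synthetase, at 190 FPKM against 285 to 497. Periportal genes were mixed, with 3 of 12 clear below and 2 clear above (background 6.91% and 4.59%). Sds, serine dehydratase of the periportal zone, was at 348 FPKM against 44.5 to 147. Of the male-biased liver genes 12 of 15 were clear below (background 6.91%, median −4.57). Among them were Hsd3b5, a steroid reductase, at 0.132 FPKM against 35.4 to 244 and Cyp4a12a at 1.49 against 100 to 473. The pericentral, periportal and male-biased lists share members with the lists above, among them Cyp2e1, Cyp2f2 and Cyp7b1, so their counts are not independent. Of 8 female-biased genes tested, 2 lay above the other 9 and 1 below (background 31.6% and 34.3%), with a median of 0.15. The list as a whole was thus not raised. Its 1 clear member was Cyp17a1, a steroid hydroxylase, at 66.7 FPKM against 0.576 to 20.8.

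Y-chromosome transcripts were low in WT chow 2 alone. Ddx3y, an RNA helicase gene, was at 10.6, 0.427 and 14.8 FPKM in WT chow 1 to 3 and at 7.01 to 17.6 FPKM in the other 9. Eif2s3y, a translation factor gene, was at 17.5, 0.937 and 15.6 FPKM, with 14.5 to 20.8 FPKM in the others. The 5 tested genes of the chromosome summed to 2.22 FPKM in WT chow 2 against 26.9 to 44.4 FPKM in the 9. Xist, the transcript of the inactive X chromosome, did not accompany this and was at 0.0717 FPKM, inside 0.00960 to 0.408 FPKM.

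Genes above the others in WT chow 2 included many of fatty acid handling. Igfbp2, a binder of insulin-like growth factors, was at 8556 FPKM against 228 to 925 (9.25-fold over the highest), and Fabp1, the liver fatty acid binding protein, at 39078 FPKM against 5403 to 17670. Cyp4a14, a fatty acid omega-hydroxylase, was at 1194 FPKM against 10.4 to 226 and Acot1, an acyl-CoA thioesterase, at 1006 against 3.26 to 319 FPKM. In a list of 28 PPAR alpha target genes, made after values had been seen, 11 were clear above and 23 lay above in all (background 4.59% and 31.6%), and the median was 1.88. Mitochondrial fatty acid oxidation genes (4 of 18 clear above, background 4.59%, median 0.37) included Eci1, an enoyl-CoA isomerase, at 982 FPKM against 97.8 to 315. Ppara itself was below the others, at 2.77 FPKM against 5.91 to 37.1.

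Some fat transcripts were high in WT chow 2 while others of the same lists were at or near 0. Cidea, a lipid droplet protein, was at 41.7 FPKM against 0 to 2.27, and Slc36a2, an amino acid transporter, at 21.6 against 0 to 0.4996 FPKM. Ucp1 and Adipoq had 0 reads there and Plin1 had 7. Only 4 of the 26 tested brown fat genes were clear above (Cidea, Cox7a1, Ucp3 and Kcnk3), beside 3 clear below, and the list median was 0.00.

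Cell division genes were mostly above the other libraries in WT chow 2, with 14 of 18 above and 6 of them clear. Over all genes 31.6% lay above and 4.59% were clear above. The list median was 1.75. Cdc20, which starts the exit from mitosis, was at 22.2 FPKM against 0.345 to 7.66 and Ccnb2, cyclin B2, at 12.4 against 0.192 to 5.23. Krt18 and Krt8, the keratin pair of hepatocytes and simple epithelia, were at 667 FPKM (111 to 310) and 474 FPKM (91.5 to 360). The stress factor gene Ddit3 was at 100 FPKM against 5.995 to 20.3, and Fgf21, a fasting and stress hormone, at 17.3 against 0.492 to 3.02. Clock genes lay low (7 of 17 clear below, background 6.91%, median −1.41), with Ciart, a clock repressor, at 0.438 FPKM against 4.69 to 21.9. Cholesterol genes did so as well (7 of 22 clear below, background 6.91%, median −0.92).

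Markers of other liver cell types varied in WT chow 2. Clec4f, a Kupffer cell lectin, was at 24.2 FPKM (9.35 to 26.2 in the others) and Stab2, a sinusoidal scavenger receptor, at 2.91 FPKM (2.10 to 4.68). In bulk RNA, fewer cells of a type and less RNA per cell cannot be told apart. Of 15 fibroblast and stellate cell genes 9 lay below the others, 2 of them clear (background 34.3% and 6.91%, median −0.55), with Dcn, the stromal proteoglycan decorin, at 6.58 FPKM against 39.3 to 64.8. T and NK lymphocyte genes summed to 7.12 FPKM, under the 15.0 to 25.9 FPKM of the 9. However, only 1 of the 7 tested lay below all 9 (background 34.3%), and the list median was −0.20. B lymphocyte genes summed to 103 FPKM, over the 24.2 to 83 FPKM of the 9, with 3 of 4 tested above (background 31.6%).

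For these genes 1 of the other 9 libraries, KO HFD 1, most often lay nearest to WT chow 2. It was the highest of the 9 for 80.4% of the genes clear above in WT chow 2 and the lowest of the 9 for 62.6% of those clear below. Over all tested genes it was the highest for 31.8% and the lowest for 12.9%. Cidea, Slc36a2, Acot1, Cyp4a14, Fabp1 and Ccnb2 each had their highest value of the 9 in KO HFD 1. Leaving that library out raised the number clear above from 562 to 1235, and leaving out the KO HFD group, a step chosen after seeing the data, gave 1408 above and 1297 below.

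Gene length and base composition also differed between these sets. Its clear-above genes had a median length of 1792 bases and 55.9% GC, its clear-below genes 2654 bases and 47.7%, and all tested genes 2876 bases and 49.7%. The median difference ran from 0.57 in the shortest of 10 bins of genes to −0.44 in the longest, where the 9 others ran from −0.22 to 0.41 and from −0.32 to 0.35. WT chow 3 ran the other way, from −0.34 to 0.23. Ribosomal protein genes, which are short and were listed after values had been seen, lay above in 26 of 49 in WT chow 2 with 0 clear. Over all genes 31.6% lay above and 4.59% were clear above there. In WT chow 3, 39 of the 49 lay below and 7 of them were clear, against 38.8% and 13% over all genes. That clear count was thus near the share over all genes. The part that length plays in the results above was not tested.

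**Figure D3:**
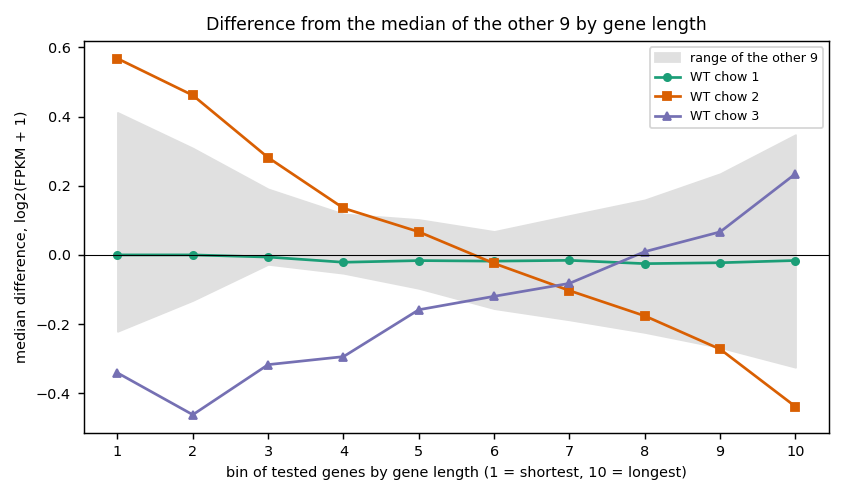
Median difference from the median of the other 9 libraries, on log2(FPKM + 1), for 10 bins of the tested genes ordered by gene length, in the 3 WT chow libraries, with the range of the 9 in grey. WT chow 1 is flat, WT chow 2 descends from 0.57 to −0.44 and WT chow 3 runs from −0.34 in the shortest bin to 0.23 in the longest.

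WT chow 3 had the transcripts of brown fat and almost none of liver, so the labelled tissue is not borne out by its markers. All 20 secreted protein genes of hepatocytes were clear below the other 9 (20 of 20, background 13%), with a median difference of −9.34 against −0.12 over all genes. Together they summed to 46.1 FPKM against 72965 to 105592 FPKM. Alb was at 11.9 FPKM, 1074-fold under the lowest of the others, and Apoa1 (chromosome 9, 46228580 to 46230466, plus strand), the main HDL protein, at 1.82 FPKM against 10306 to 14984, 5676-fold under the lowest. Hpx was at 1.19 FPKM against 3080 to 6903.

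The other hepatocyte lists were low in WT chow 3 as well. Metabolic enzymes were clear below in 24 of 25, P450 and drug-handling genes in 22 of 24, bile acid and uptake genes in 16 of 16 and liver transcription factors in 12 of 18. Over all genes 13% were clear below. Cps1, the first enzyme of the urea cycle, was at 0.186 FPKM against 304 to 667, and Fabp1 at 2.52 against 5403 to 17670. Foxa2, a pioneer factor of liver genes, had 0 reads against 10.9 to 22.7 FPKM (at least 128-fold lower than the lowest, at 3 reads in the library). Pck1 was the exception among the enzymes: phosphoenolpyruvate carboxykinase, which also makes glycerol for fat storage in adipocytes, was above all others at 1203 FPKM against 316 to 926. Cebpb, Cebpa and Ppara, factors that fat shares with liver, were not clear of the range, at 50.9, 103 and 35.6 FPKM. Cebpa still lay below all the others. In all, 16 of the 18 liver transcription factors lay below the range (background 38.8%).

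Brown fat genes were clear above in 20 of 26 tested (background 7.49%), with a median difference of 4.10. Genes entered the test by their mean over all 12 libraries. Some near 0 in the 9 could thus enter only because WT chow 3 was high, which favors a place above. Of the 26, 12 had a median of at least 1 FPKM in the 9. For these the median level in WT chow 3 was 1174% of the median of the 9. Ucp1 (ENSMUSG00000031710, chromosome 8, 83290348 to 83298456, plus strand) had 63434 reads and stood at 2339 FPKM, with 0 in WT chow 1 and 2 and 0 to 3.20 FPKM in the 9, 731-fold over the highest. That highest value was in WT HFD 2, and only 1 other of the 9 held any read. Cidea was at 1445 FPKM against 0 to 2.27, and Cox8b, a respiratory subunit of heart, muscle and brown fat, at 3832 against 0.342 to 36.7 FPKM. Kcnk3, a potassium channel, was at 188 FPKM against 0.0274 to 0.360 and Ppargc1a, the coactivator of mitochondrial growth, at 15.5 against 0.859 to 1.61 FPKM.

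Factors and enzymes that define brown over white fat were present at low level. Dio2, which activates thyroid hormone, was at 5.98 FPKM, Ebf2, a brown fat transcription factor, at 5.18, Prdm16 at 2.15 and Zic1 at 1.73 FPKM, while none of the 9 others exceeded 0.103 FPKM for any of these. The 3 brown fat list members clear below, Slc27a2, Cpn2 and Eva1a, are transcripts that the other 9 held at 191 to 353, 39.8 to 110 and 53.0 to 91.0 FPKM. White fat genes split, with 3 of 8 clear above (Nnat, Sncg and Nrg4) and 3 clear below (background 7.49% and 13%). Rbp4, among those below, is also on the list of hepatocyte secreted proteins. The white fat list summed to 2857 to 4409 FPKM in the 9 others and to 72.4 FPKM in WT chow 3. Its low members therefore do not separate white from brown fat. Lep, the hormone leptin, was at 3.39 FPKM against at most 0.298, Hoxc8 at 4.15 FPKM with 0 reads in the 9, and Hoxc9 had 0 reads.

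General adipocyte genes were clear above in 23 of 25 (background 7.49%), with a median of 5.37 and 1 clear below. The same limit of the filter holds here, and 17 of the 25 had a median of at least 1 FPKM in the 9. For these the median level in WT chow 3 was 3367% of the median of the 9. Fabp4, the fat cell fatty acid binding protein, was at 8367 FPKM against 5.54 to 45.5 (184-fold over the highest), Plin1 at 489 against 0 to 2.36, and Adipoq at 281 against 0 to 3.50 FPKM. Lpl, the lipase that unloads lipoproteins, was at 1083 FPKM against 5.80 to 38.8. Car3, a carbonic anhydrase of fat and liver, was the member below, at 131 FPKM against 1138 to 3616. The highest value of the 9 for Fabp4, Plin1, Adipoq, Cox8b and Ucp1 was in WT HFD 2 each time.

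**Figure D4:**
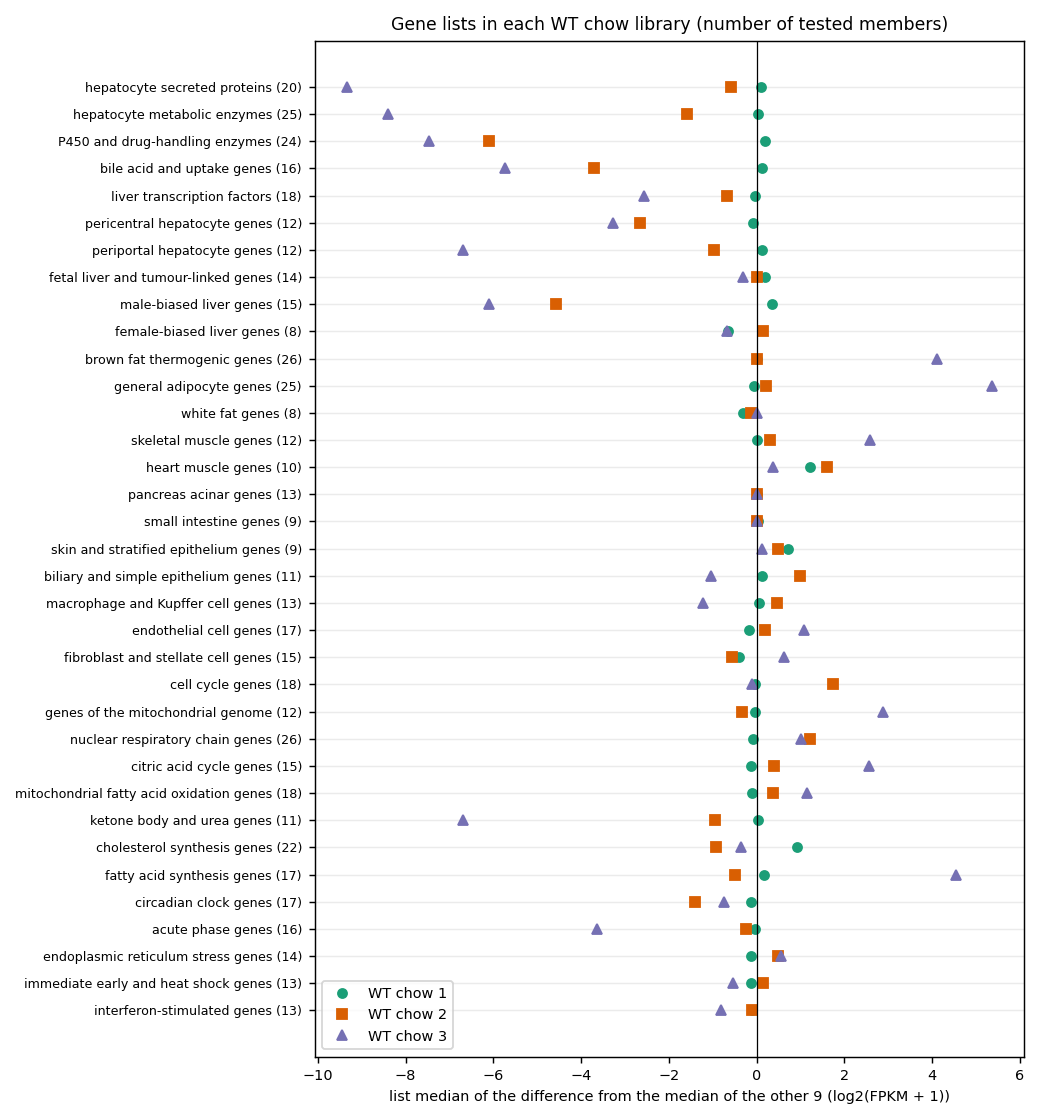
Median difference of the gene lists set at the start with at least 8 tested members from the median of the other 9 libraries, on log2(FPKM + 1), with 1 marker for each WT chow library and the number of tested members in brackets. WT chow 1 stays near 0 in most lists, WT chow 2 reaches −6.10 for P450 and drug-handling genes, and WT chow 3 reaches −9.34 for secreted proteins and 5.37 for adipocyte genes.

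Mitochondrial transcripts were high in WT chow 3. Genes of the mitochondrial genome took 37.5% of its reads, against 5.70% and 3.39% in WT chow 1 and 2 and 5.14 to 6.26% in the 9. All 12 tested were clear above (12 of 12, background 7.49%, median 2.87), with mt-Nd1, a complex I subunit, at 95832 FPKM against 7038 to 9408. Rescaling to reads on nuclear genes moved the median of all genes in WT chow 3 from −0.12 to 0.31 and the clear counts to 1782 above and 1237 below. Citric acid cycle genes were clear above in 11 of 15 (background 7.49%, median 2.57). Idh3a, an isocitrate dehydrogenase subunit, was at 477 FPKM against 11.5 to 17.2 and Cs, citrate synthase, at 680 against 28.0 to 47.6. Suclg2 was clear below at 29.5 FPKM against 96.4 to 152. Nuclear respiratory chain genes lay above in 20 of 26 (5 clear, median 1.0) in WT chow 3, and in 23 of 26 (2 clear, median 1.22) in WT chow 2. Over all genes 25.4% lay above and 7.49% were clear above in WT chow 3, and 31.6% and 4.59% in WT chow 2. The clear count of this list in WT chow 2 was thus near the share over all genes.

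Many fatty acid synthesis and oxidation genes lay above the others in WT chow 3, while 4 of 22 cholesterol synthesis genes did so. Fatty acid synthesis genes were clear above in 10 of 17 (median 4.54), with Fasn, fatty acid synthase, at 1615 FPKM against 9.87 to 43.9 and Scd1, which desaturates its products, at 8617 against 93.4 to 977. Fatty acid oxidation genes were clear above in 6 of 18 (median 1.15). Of 22 cholesterol synthesis genes 0 were clear above and 6 clear below (median −0.36). Over all genes the shares were 7.49% and 13%. In all, 4 of the 22 lay above and 9 below, against 25.4% and 38.8% over all genes. Their sum was 564 FPKM, inside the 484 to 1363 FPKM of the 9. Cpt1b, the muscle and brown fat form of the entry step, was at 12.8 FPKM against 0 to 0.838, while the liver form Cpt1a was at 11.01 against 64.5 to 101 FPKM. Oxct1, which burns ketone bodies and is nearly silent in hepatocytes, was at 68.8 FPKM against 0.923 to 1.96.

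Defining markers of liver macrophages and sinusoids were at or near 0 in WT chow 3. Of 13 macrophage and Kupffer cell genes 10 lay below and 4 of these were clear (background 38.8% and 13%), and the list summed to 70.3 FPKM. Clec4f was at 0.196 FPKM against 9.35 to 26.2, and Cd5l, a Kupffer cell protein, had 1 read where the 9 others were at 13.5 to 78.2 FPKM. Clec4g, a lectin of liver sinusoids, had 0 reads against 11.4 to 27.0 FPKM (at least 90.4-fold lower). Of 17 endothelial genes 4 were clear above and 3 clear below (background 7.49% and 13%). Pecam1 was at 18.5 FPKM against 3.13 to 4.59 and Rgcc, a capillary gene, at 98.1 against 0 to 0.748. Skeletal muscle genes summed to 119 FPKM, inside the 4.74 to 189 FPKM of the 9. Of these 2 of 12 were clear above (Myh4 and Myl1, background 7.49%). Nnt, the mitochondrial transhydrogenase that some mouse strains lack, was at 1.14 FPKM against 23.0 to 38.5, and at 33.4 and 17.8 FPKM in WT chow 1 and 2. It was listed as a strain-linked gene, and strain is not given.

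Pairs of related genes that divide a step between liver and other tissues also set the 3 libraries apart. For each of 24 pairs the level of the second form minus that of the liver form was taken on log2(FPKM + 1). It lay above all 9 others in 0 pairs in WT chow 1, 13 in WT chow 2 and 17 in WT chow 3, and above by at least 4 units in 0, 3 and 15. In the median of the 9 the liver form was the higher in every pair. The second form was the higher in 0, 6 and 14 pairs of WT chow 1, 2 and 3.

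Single pairs differed between WT chow 2 and WT chow 3. Fabp4 minus Fabp1 was −10.06 in WT chow 1, −8.94 in WT chow 2 and 11.22 in WT chow 3, against −10.03 to −7.12 in the 9, so that only in WT chow 3 was Fabp4 the higher. Pkm minus Pklr, the pyruvate kinases, was −2.19, 3.18 and 9.89 against −2.87 to −1.07. Slc27a1 minus Slc27a5, fatty acid transport proteins, was −6.56, 5.32 and 6.07 against −7.13 to −2.25. In both of these pairs the second form was the higher in WT chow 2 and WT chow 3, with Pklr at 1.9 FPKM in WT chow 2 against 27.9 to 102. Pygm, the muscle glycogen phosphorylase, stayed under Pygl in all 3 libraries (−5.91, −4.97 and −6.56, inside the range of the 9).

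**Figure D5:**
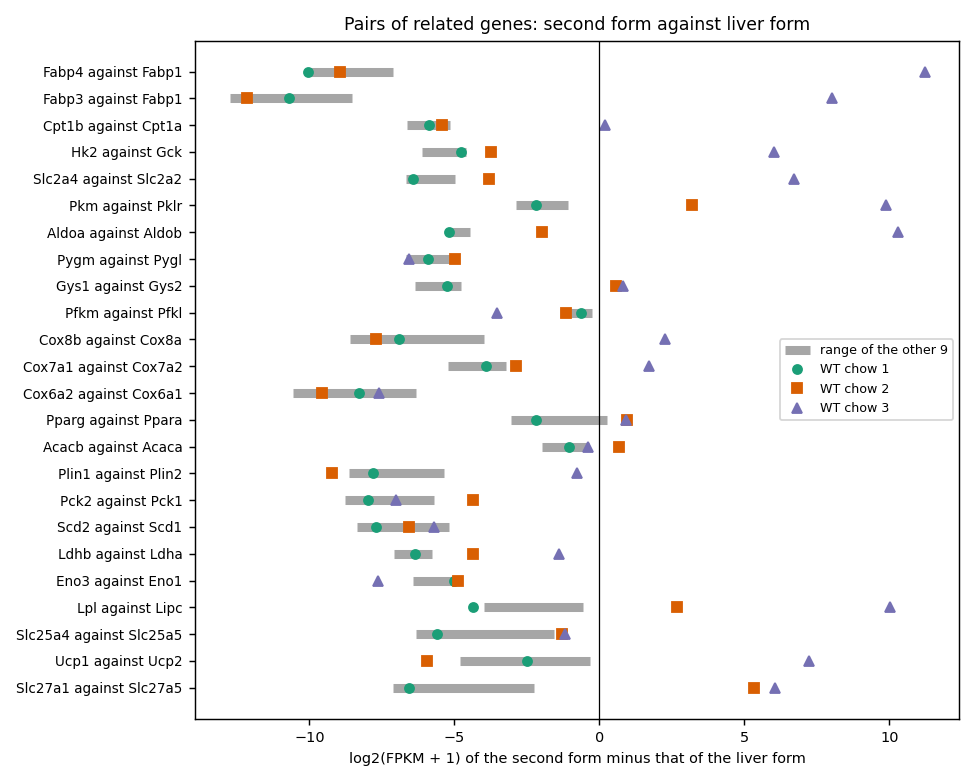
For 24 pairs, the log2(FPKM + 1) level of the second form minus that of the liver form in the 3 WT chow libraries (markers) and the range of the other 9 (grey bars). Markers right of 0 have the second form higher, which holds for 0 pairs in WT chow 1, 6 in WT chow 2 and 14 in WT chow 3.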

How the data were processed

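Total RNA from 12 samples labelled liver was sequenced, and the deposited values are FPKM for 35275 genes, which the authors scaled to gene length and library depth (per the file headers, which also give length and position). The submitters' processing notes list DESeq2 (version 2), HTSeq 0.6.1, STAR, TopHat and CASAVA, and the builds mm10 and GRCm38. The tool that made the deposited values, the annotation release and the strand setting could not be learned from the sources used here, so reads of overlapping genes or near-identical family members may be shared or split.

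All 12 columns matched samples by title, leaving 0 columns unmapped. FPKM times length gave whole reads for 100% of values (tolerance 0.1 of a read), 15705196 to 20311766 reads per library. Floors of 3 reads cover counting error only. Symbols turned into dates (27) were restored, and 34490 identifiers matched the table of names. Same-group libraries differed by 36.0 to 1234 in mean chi-square per gene, so none was a repeat of another.

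Levels were compared as log2(FPKM + 1) over 12251 genes with a mean of at least 0.5 FPKM, of which 11425 were protein-coding. Each WT chow library was set against the other 9 as a description. The group test was limma 3.58.1 (R 4.3.3) with 4 group means, a trended empirical Bayes step, Benjamini-Hochberg adjustment and a threshold of 0.05, checked on simulated data. Python 3.11.15, pandas 2.3.3, scipy 1.17.1 and matplotlib 3.10.9 were used for the rest. The comparison and its gene lists were chosen with earlier results of these data known: 50 lists were set at the start and 7 added after values had been seen.

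Named genes were Hnf4a, the up to 12 genes furthest above and below the others in each library (predicted, clone-named and pseudogene entries left out), up to 5 clear members and 1 abundant member not clear for lists with at least 25% of tested members clear, the first 3 members of any list, the 5 genes with the smallest p, and the gene pairs. Genes named outside this rule were chosen after their values were seen. Replicate numbers did not pair libraries. Alternatives covered pseudocount, filter, scaling, libraries, threshold and model. A few genes that the rule names are not reported here.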

Additional observations from a re-analysis of the deposited data

How the results depend on the processing

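The limma contrast of WT chow with the other 9 libraries called 0 genes as reported, 1 with a pseudocount of 0.1, 3 with no filter, 1 with median-of-ratios scaling and 1 with quantile scaling. With a single WT chow library in the fit, assumed to vary like the other groups, it called 1 gene for WT chow 1, 5936 for WT chow 2 and 5761 for WT chow 3. Leaving out each library in turn gave 0 to 3130 calls, the highest without WT chow 1, and an Hnf4a difference from −3.78 to −0.35. A replicate block on the replicate numbers called 0 genes, but the numbers did not pair libraries (correlations of −0.50 to 0.13 over 18 pairs, 2 of them over 0.1). For WT chow 1 the clear counts (3 above, 3 below) became 5 and 11 with a pseudocount of 0.1, 1 and 1 with 5, and 1 and 1 at 2 log2 units; the count above alone became 0 with a minimum of 2 FPKM, 8 with no filter, 6 as TPM and 8 without the KO HFD group. For WT chow 2 (562 above, 846 below) they became 274 and 452 with a pseudocount of 5, 45 and 335 at 2 log2 units, and 1408 and 1297 without the KO HFD group (added after seeing the data); 1436 lay below with a pseudocount of 0.1. Leaving out 1 of the 9 gave 562 to 1235 above, the highest without KO HFD 1. For WT chow 3 (918 above, 1592 below) they became 596 and 1009 with a pseudocount of 5, and 393 and 864 at 2 log2 units; 591 lay above with a minimum of 2 FPKM and 1782 on nuclear reads. TPM moved the median of all genes in WT chow 2 from −0.01 to −0.20. The causes were not tested. Of 990 alternative values of gene list medians, 792 moved by less than the spread among the 9, 198 moved by more and 0 changed sign among called values.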

Other observations

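Further plasma protein lists, the first 2 made after values had been seen, were low in WT chow 3 and differed from each other in WT chow 2. Over all tested genes, 6.91% were clear below in WT chow 2 and 13% in WT chow 3. Complement genes were clear below in 14 of 21 in WT chow 2 (median difference −3.06) and in 19 of 21 in WT chow 3 (median −6.39). In WT chow 2 C8a, a pore subunit, was at 1.12 FPKM against 125 to 295 in the other 9, while C3, the central component, stood at 2907 FPKM against 860 to 2731. Coagulation genes were clear below in 7 of 20 in WT chow 2 (median −0.37) and in 20 of 20 in WT chow 3 (median −8.31). Acute phase genes were clear below in 2 of 16 in WT chow 2 (median −0.24) and in 12 of 16 in WT chow 3 (median −3.65). In WT chow 2, 3 of them lay above and 3 below all 9 others (background 31.6% and 34.3%). Their sum there was 16321 FPKM, inside the 7640 to 22952 FPKM of the 9. Among the acute phase genes Hp, haptoglobin, was at 7802 FPKM in WT chow 2 and 487 FPKM in WT chow 3, against 1652 to 5744 FPKM.

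Selenbp2, a selenium-binding protein gene of liver, was at 8.57 FPKM in WT chow 1, but the 9 others themselves ran from 12.0 to 966 FPKM with a median of 409, so that WT chow 1 lay below them without being clear. Pancreatic islet genes summed to 0.179, 0.115 and 0.113 FPKM in WT chow 1 to 3, and at most 0.469 FPKM in the 9, and 0 of the 12 reached the minimum for testing. Ctrb1, a pancreatic chymotrypsinogen, was at 4.47 FPKM in WT chow 1 and had 0 reads in WT chow 2 and 3, as in the 6 WT HFD and KO chow libraries, while KO HFD 1 to 3 had 34.3, 18.5 and 20.6 FPKM.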
